A study of Brassica rapa with 18 samples.

Results

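Leaf transcripts of 4 gene copies were followed in Brassica rapa after a spray of the plant hormone methyl jasmonate (MeJA): Bra012961, Bra035929 and Bra029311, taken as copies of MYB28, and Bra005949, taken as a copy of MYB29. They were selected by identifier, and all 4 were present among the 42186 features of the count table. That table pairs no identifier with a gene name, so the assignment to MYB28 and MYB29 was taken as given and could not be checked here. All plants were wild type and of the inbred line R-o-18 (variety trilocularis), grown on plates and 10 days old at spraying. The treated plants received 10 mL of 50 μM MeJA in 0.1% Tween-20 and their controls, called mock, received water with the same amount of Tween-20. Leaves were taken 10 min, 24 h or 72 h later; each of the 6 conditions had 3 libraries, which the labels call biological replicates, and there were 18 in all. Whether a replicate was 1 plant or a pool is not stated in the labels, and p-values measure the spread between these libraries.

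MYB28 and MYB29 are R2R3-type MYB transcription factors. In Arabidopsis thaliana they switch on the genes that make aliphatic glucosinolates, the methionine-derived defence compounds of the mustard family. Among these are genes for the enzymes of methionine chain elongation. Others encode the cytochromes P450 that carry out the first steps from the elongated amino acids to the glucosinolate core. In that species MYB28 is regarded as the main regulator and MYB29 as an accessory one that takes part in the response to methyl jasmonate. The Brassica rapa lineage passed through a genome triplication after it separated from that of Arabidopsis, and many single Arabidopsis genes therefore have several copies in it.

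Library totals ran from 13505607 to 17796115 counts. Levels are given as CPM, a gene's read count relative to the library total in the usual unit, after TMM scaling, which corrects that total for differences in composition. No gene length is given here, so CPM were compared between libraries for 1 gene and never between genes. A change was called when the adjusted p of edgeR's quasi-likelihood test, corrected by the Benjamini-Hochberg method over all 26593 features tested, was under 0.05. All 4 copies passed the filter on low counts. Bra005949 reached the filter's level of 0.650 CPM in 9 of 9 MeJA libraries and in 2 of 9 mock libraries, and the filter asks for 3 libraries, so it passed only through the treatment in which it was higher. Counts of copies called are therefore given as descriptions. With no filter the edgeR adjusted p of Bra005949 was 0.00398 at 24 h and 0.0250 at 72 h. How reads that match more than 1 copy were assigned is not given in the sources used here, so the counts of near-identical copies are uncertain to that extent.

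The copies moved in opposite directions after MeJA. Bra035929 and Bra029311, 2 of the MYB28 copies, fell at 24 h, each by more than 3-fold, and were still lower than mock at 72 h. Bra012961, the other MYB28 copy, rose at 72 h, and Bra005949, the MYB29 copy, rose at 24 h and at 72 h. At 10 min no copy was called. The number of copies called was 0 of 4 at 10 min, 3 of 4 at 24 h and 4 of 4 at 72 h, where 7.13%, 28.5% and 9.74% of all features tested were called. At 10 min, 1 copy (Bra035929) had an unadjusted p under 0.05 in edgeR's test, and DESeq2 called 0. At 24 h, 1 copy rose and 2 fell, where 15.4% of all features rose and 13.1% fell, and at 72 h, 2 rose and 2 fell, where 6.11% rose and 3.63% fell. Bra005949 was called higher at both later times, like 4.57% of features, and Bra035929 and Bra029311 were called lower at both, like 2.29%. In all 4 copies the MeJA and mock libraries did not overlap at 24 h and at 72 h, which held for 36.8% and 33.5% of features.

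**Figure D1:**
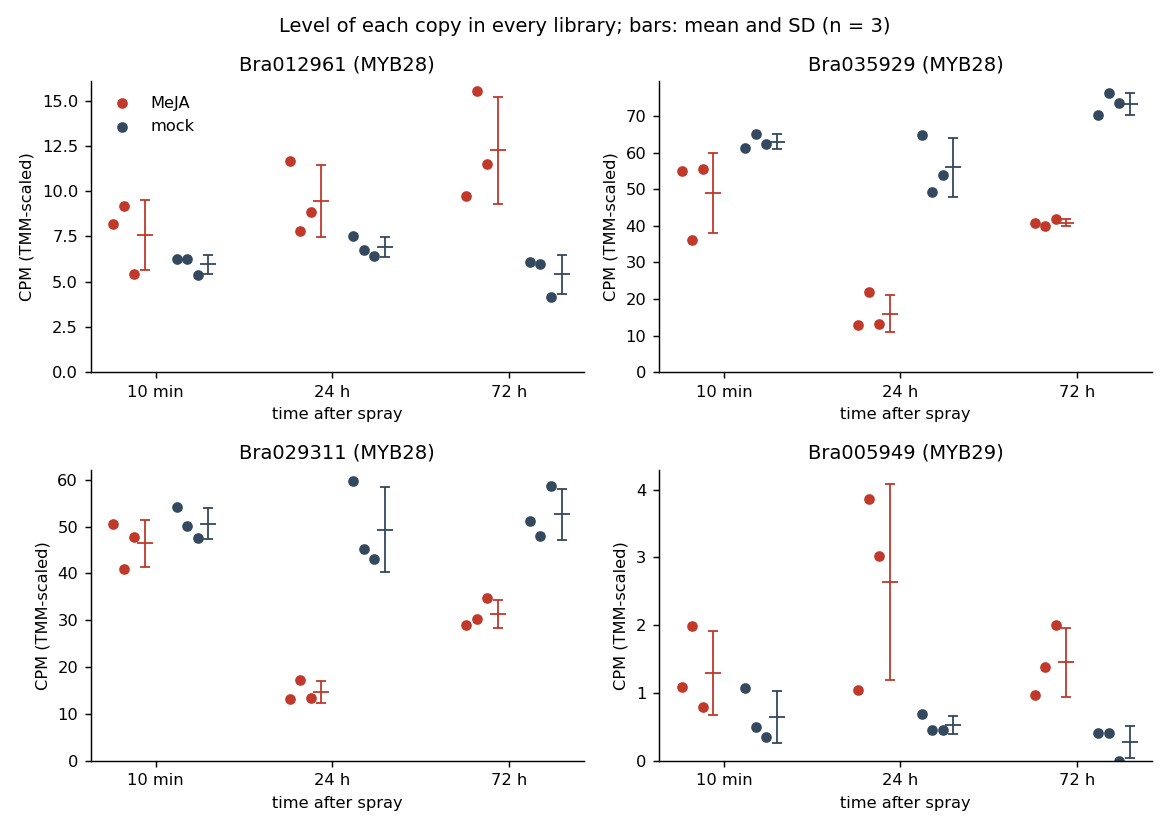
CPM of each copy in every library (points, replicates 1 to 3 from left to right) with the mean and SD of each group (bars, n = 3), MeJA in red and mock in dark blue, at the 3 times (10 min, 24 h, 72 h); each panel has its own axis starting at 0. Bra035929 and Bra029311 lie lowest in the MeJA libraries of 24 h, and Bra012961 and Bra005949 lie above mock in the MeJA libraries of 24 h and 72 h.

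Bra035929 showed the fall most fully. At 24 h it stood at 13.0, 21.8 and 13.1 CPM in MeJA leaves, against 64.9, 49.1 and 54.0 CPM in mock leaves. The 3 MeJA libraries lay far below all mock libraries, and replicate 2 was the highest of them. The means were 15.96 ± 5.08 and 55.997 ± 8.07 CPM (SD, n = 3 each), and the log2 fold change was -1.81 (SE 0.18; adjusted p = 1.78e-06, edgeR), a level 3.51-fold lower with MeJA. Of the features tested, 1.25% had a lower log2 fold change at this time.

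At 72 h Bra035929 stood at 40.7, 39.9 and 41.9 CPM in MeJA leaves, against 70.2, 76.2 and 73.5 CPM in mock leaves. Both groups were tight and did not overlap. The log2 fold change was -0.84 (SE 0.17; edgeR adjusted p = 0.00540). At 10 min the values were 54.9, 36.2 and 55.4 CPM in MeJA leaves and 61.3, 65.2 and 62.4 CPM in mock leaves. All MeJA libraries were below all mock libraries here too, but the call was missed (log2 fold change -0.37, SE 0.17; edgeR adjusted p = 0.207), and 30.3% of all features tested showed no overlap at this time.

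MeJA 10 min replicate 2, which held the low value of 36.2 CPM, stood apart from the other libraries of its group. In 22 genes abundant in MeJA leaves at 24 h and almost silent in mock leaves at 10 min, its median level was 3.96% of that at 24 h, compared with 0.239% in replicate 1 and 0.357% in replicate 3. ENSRNA features took 4.31% of its counts and 1.35% and 1.77% of theirs. In MeJA leaves at 72 h the median level of the 22 genes was 4.09%, 3.28% and 2.14% in replicates 1 to 3. ENSRNA features took 1.69%, 3.98% and 4.03% of counts there, and 0.997% to 5.80% in mock libraries. Why MeJA 10 min replicate 2 differed from its group was not tested. Without that library, the log2 fold change of Bra035929 at 10 min was -0.19. That of Bra029311 was then -0.04 and that of Bra012961 was 0.19.

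Bra029311, another MYB28 copy, followed the same course. At 24 h it stood at 13.1, 17.3 and 13.4 CPM in MeJA leaves, against 59.8, 45.3 and 43.1 CPM in mock leaves. The groups did not overlap, and mock replicate 1 was higher than the other mock libraries. The log2 fold change was -1.76 (SE 0.14; edgeR adjusted p = 2.26e-07), a level 3.38-fold lower with MeJA, and by p-value this copy ranked 52 among all features tested at 24 h.

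At 72 h Bra029311 stood at 29.1, 30.2 and 34.8 CPM in MeJA leaves, against 51.1, 48.0 and 58.7 CPM in mock leaves. The groups were again apart, and the log2 fold change was -0.75 (SE 0.13; edgeR adjusted p = 0.00257). At 10 min it stood at 50.6, 40.9 and 47.7 CPM in MeJA leaves and at 54.3, 50.2 and 47.6 CPM in mock leaves. These ranges overlapped, and the log2 fold change was -0.13 with a 95% interval from -0.41 to 0.15 (edgeR adjusted p = 0.624).

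Bra012961, the MYB28 copy that rose, was highest in MeJA leaves at 72 h. It stood at 9.75, 15.5 and 11.5 CPM there, against 6.09, 5.95 and 4.17 CPM in mock leaves of that time. Every MeJA library was above every mock library, and MeJA replicate 2 was the highest. The log2 fold change was 1.18 (SE 0.21; edgeR adjusted p = 0.00254), a level 2.26-fold higher with MeJA, and 3.19% of the features tested had a higher one.

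At 24 h Bra012961 stood at 11.7, 7.79 and 8.88 CPM in MeJA leaves, against 7.51, 6.77 and 6.42 CPM in mock leaves. The MeJA libraries were all above the mock libraries, by a small margin, and the call was missed (log2 fold change 0.45, 95% interval 0.0062 to 0.90; edgeR adjusted p = 0.122). Without MeJA replicate 1 its log2 fold change was 0.27. At 10 min the values were 8.20, 9.17 and 5.43 CPM in MeJA leaves and 6.25, 6.26 and 5.37 CPM in mock leaves. The ranges overlapped (log2 fold change 0.35, 95% interval -0.11 to 0.81; edgeR adjusted p = 0.363).

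Bra005949, the copy of MYB29, rested on few reads. At 24 h it had 15, 55 and 49 counts in MeJA leaves, against 11, 7 and 7 counts in mock leaves, which is 1.04, 3.86 and 3.02 CPM against 0.683, 0.456 and 0.459 CPM. The groups did not overlap, and MeJA replicate 1 was close to the mock libraries. The log2 fold change was 2.29 (SE 0.57; edgeR adjusted p = 0.00635), with a 95% interval from 1.08 to 3.50.

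At 72 h Bra005949 had 17, 24 and 34 counts in MeJA leaves, against 7, 7 and 0 counts in mock leaves. A count of 0 in mock replicate 3 has a two-sided 95% upper limit of 3.69 counts. A floor of 3 counts is 0.195 CPM in that library. The groups were apart (log2 fold change 2.33, SE 0.65; edgeR adjusted p = 0.0321), but at these counts the call was lost on leaving out MeJA replicate 2 or 3 or any mock replicate of that time, with log2 fold changes from 1.80 to 2.73 and adjusted p from 0.0604 to 0.0852. At 10 min it had 16, 30 and 11 counts in MeJA leaves and 16, 8 and 5 in mock leaves. These ranges overlapped (log2 fold change 1.00, 95% interval -0.26 to 2.26; edgeR adjusted p = 0.344). The value was 0.54 without MeJA replicate 2 and 1.59 without mock replicate 1.

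**Figure D2:**
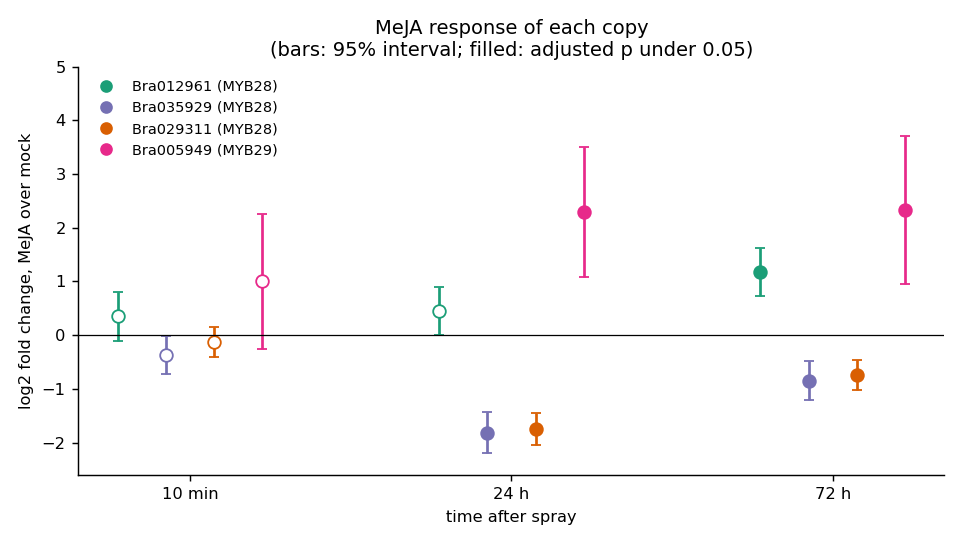
Log2 fold change of MeJA over mock for each copy at the 3 times, with 95% intervals from the edgeR fit; filled points have an adjusted p under 0.05 and open points do not. Bra035929 and Bra029311 lie near -1.8 at 24 h and between -0.85 and -0.74 at 72 h, while Bra012961 and Bra005949 lie above 0 at every time.

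Averaged over the 3 times, with time balanced between treatments, all 4 copies were called, where 37.5% of the features tested were called. The log2 fold changes were -1.01 (SE 0.10) for Bra035929 and -0.88 (SE 0.08) for Bra029311, both lower with MeJA. They were 0.66 (SE 0.12) for Bra012961 and 1.87 (SE 0.35) for Bra005949, both higher with MeJA. The adjusted p of these 4 averages ran from 3.80e-07 to 0.000505 in edgeR's test. The median log2 fold change of the 4 copies at 24 h was -0.65, beside -0.01 over all features, and at 72 h it was 0.22 beside -0.03; each median mixes 2 copies on either side of 0.

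**Figure D3:**
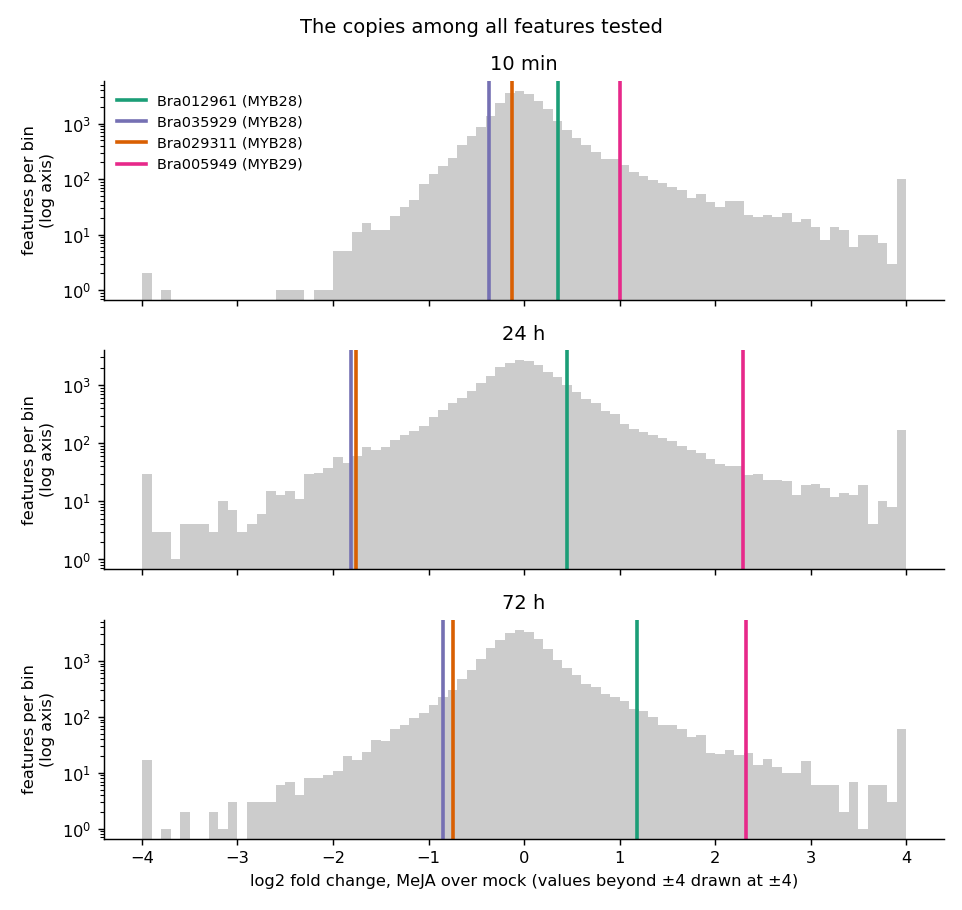
Distribution of log2 fold changes of MeJA over mock over all 26593 features tested (grey, number of features per bin on a log axis) at the 3 times, with the 4 copies as coloured lines. At 24 h the lines of Bra035929 and Bra029311 lie in the lower tail, where 1.25% and 1.38% of features are lower, and that of Bra005949 in the upper tail, where 1.68% are higher.

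The response of the 2 falling copies changed between times, as tested by interaction contrasts in the same fit. From 10 min to 24 h the log2 response of Bra035929 moved by -1.45 (SE 0.25; edgeR adjusted p = 0.00389) and that of Bra029311 by -1.63 (SE 0.19; edgeR adjusted p = 0.000230). These were 2 of 4 copies, where 2.88% of the features tested were called. From 24 h to 72 h the response of Bra029311 moved back by 1.01 (SE 0.19; edgeR adjusted p = 0.0128), 1 of 4 copies where 1.82% of features were called. That of Bra035929 moved by 0.97 (SE 0.24) with an edgeR adjusted p of 0.0517, just short of a call, and was called by DESeq2 (adjusted p = 0.00631).

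For the rising copies no difference between times was called. The response of Bra012961 was larger at 72 h than at 24 h by 0.73 (95% interval 0.099 to 1.35; edgeR adjusted p = 0.242). That of Bra005949 differed between these times by 0.04, with a 95% interval from -1.34 to 1.42 that spans large changes in either direction. Between 10 min and 72 h, 0 of 4 copies were called by edgeR or by DESeq2, with 2 of 4 at an unadjusted p under 0.05 in edgeR (Bra012961 and Bra029311) and 0.301% of features called. Each time is also a batch in the labels, and plants sampled later were older. A change between times therefore cannot be told apart from a change with batch or plant age.

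In mock leaves no change of a copy over time was called. There 0 of 4 copies were called by edgeR or by DESeq2 between any 2 times, where edgeR called 6.25% of features from 10 min to 24 h, 3.65% from 24 h to 72 h and 19.7% from 10 min to 72 h. These counts of features, 1661, 970 and 5247, fell to as few as 530 without mock 24 h replicate 3, 267 without mock 24 h replicate 2 and 2922 without mock 72 h replicate 3. At an unadjusted p under 0.05 edgeR gave 1 copy, Bra035929, whose mock level at 72 h was above that at 24 h by 0.39 on the log2 scale (95% interval 0.035 to 0.74). The intervals of Bra005949 in mock leaves were the widest of the 4 copies, from -2.48 to 0.68 for 72 h minus 24 h and from -2.72 to 0.37 for 72 h minus 10 min, and they leave large declines possible.

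In MeJA leaves the falling copies changed over time, where time, batch and plant age again cannot be told apart. Bra035929 was lower at 24 h than at 10 min (log2 fold change -1.61, SE 0.18; edgeR adjusted p = 7.19e-06) and higher at 72 h than at 24 h by 1.36 (SE 0.18; edgeR adjusted p = 6.46e-05). Bra029311 gave -1.67 (SE 0.14; edgeR adjusted p = 5.23e-07) for the same step to 24 h, and from 24 h to 72 h its level became 2.14-fold higher (edgeR adjusted p = 5.10e-05). Bra029311 was still lower at 72 h than at 10 min (log2 fold change -0.57, SE 0.13; edgeR adjusted p = 0.00555), whereas the corresponding value of Bra035929 was -0.26 (95% interval -0.62 to 0.10; edgeR adjusted p = 0.280). Of the rising copies, Bra012961 was higher in MeJA leaves at 72 h than at 10 min by 0.69 (SE 0.21; edgeR adjusted p = 0.0212), a call lost without MeJA 10 min replicate 3 (0.50, edgeR adjusted p = 0.0940) or MeJA 72 h replicate 2 (0.48, edgeR adjusted p = 0.133). The comparisons in MeJA leaves called 2 of 4 copies each, where 26.9% of features were called from 10 min to 24 h, 16.7% from 24 h to 72 h and 26% from 10 min to 72 h.

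Ordered by mean level, the 6 conditions split by treatment for every copy. How many of all features show such a split was not counted, so this is a description. In every copy the MeJA and mock conditions that met in the middle of the order overlapped in their libraries. For Bra035929 the order was, from low to high, MeJA 24 h, MeJA 72 h, MeJA 10 min, mock 24 h, mock 10 min and mock 72 h, at 15.96, 40.8, 48.8, 55.997, 62.97 and 73.3 CPM. Only the lowest and the highest pair of neighbours in that order were free of overlap between their libraries. Bra029311 had the same order, at 14.6, 31.4, 46.4, 49.4, 50.7 and 52.6 CPM. MeJA 24 h and MeJA 72 h each lay apart from the condition above them, and the higher conditions overlapped with their neighbours.

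For Bra012961 the order was, from high to low, MeJA 72 h, MeJA 24 h, MeJA 10 min, mock 24 h, mock 10 min and mock 72 h, at 12.3, 9.45, 7.60, 6.90, 5.96 and 5.40 CPM. All neighbours overlapped in their libraries except mock 24 h and mock 10 min. These were 6.42 and 6.26 CPM at their closest, and no difference was called (edgeR adjusted p = 0.599). For Bra005949 it was, again from high to low, MeJA 24 h, MeJA 72 h, MeJA 10 min, mock 10 min, mock 24 h and mock 72 h, at 2.64, 1.45, 1.29, 0.645, 0.533 and 0.276 CPM. Here all neighbours overlapped except mock 24 h and mock 72 h. The lowest library of mock 24 h and the highest of mock 72 h both had 7 counts, at 0.456 and 0.417 CPM. No difference between these conditions was called (edgeR adjusted p = 0.519).

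The make-up of MYB28 reads differed between treatments at 24 h and 72 h. A share rises when the other copies fall, and at 24 h Bra012961 itself was not called (log2 fold change 0.45, edgeR adjusted p = 0.122). Bra012961 held 30.9%, 16.6% and 25.1% of the summed counts of the 3 MYB28 copies in MeJA leaves at 24 h, against 5.68%, 6.69% and 6.21% in mock leaves. At 72 h it held 12.3%, 18.1% and 13.0% in MeJA leaves, against 4.78%, 4.57% and 3.05% in mock leaves. The treatments did not overlap at either time. At 10 min the shares were 7.21%, 10.6% and 4.997% in MeJA leaves and 5.13%, 5.15% and 4.66% in mock leaves, with overlap. A share of counts also depends on gene length, so the change of a share with treatment can be read and its size relative to another copy cannot.

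Summed over the 3 MYB28 copies, the level at 24 h was 40.04 ± 6.10 CPM in MeJA leaves and 112.3 ± 17.3 CPM in mock leaves (SD, n = 3 each). The sum was 84.4 ± 4.49 and 131 ± 4.59 CPM at 72 h, and 103 ± 14.6 and 120 ± 3.73 CPM at 10 min, in the same order of treatments. The mean summed CPM was lower with MeJA at every time, and no test was made of this sum. At 10 min the libraries held 113.7, 86.3 and 108.6 CPM in MeJA leaves and 121.9, 121.6 and 115.3 CPM in mock leaves. The lowest of these was MeJA replicate 2, the library that stood apart from its group, and no copy was called at this time. In whole leaves, fewer cells that express a gene and less of its RNA per cell cannot be told apart.

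**Figure D4:**
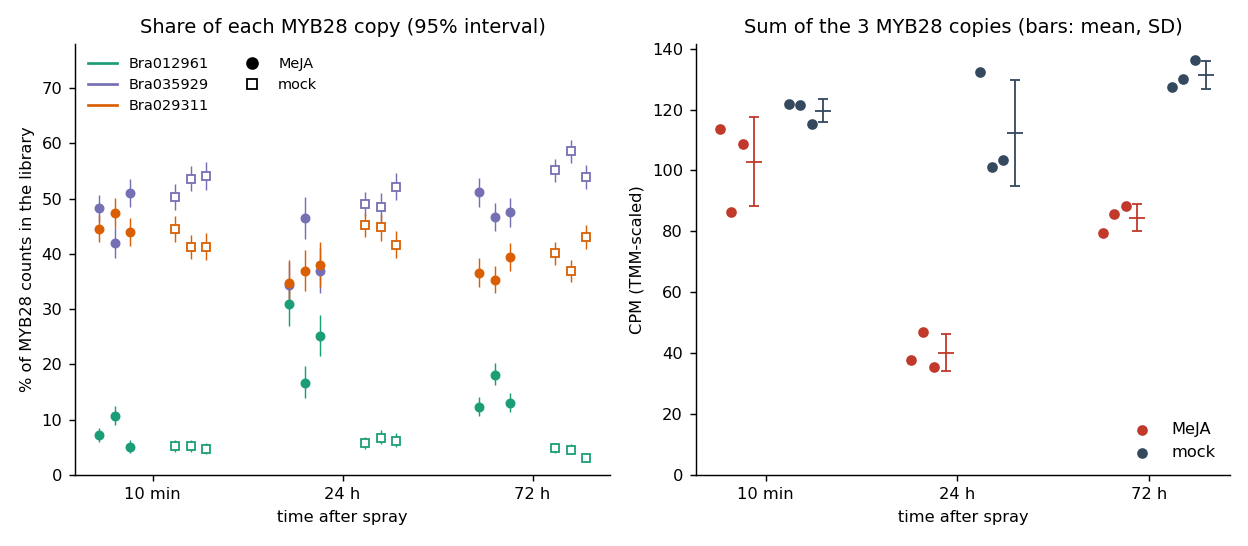
Left, share of the summed MYB28 counts held by each of the 3 MYB28 copies in every library, with exact 95% binomial intervals for counting error (filled circles MeJA, open squares mock). Right, the summed CPM of the 3 copies in every library with mean and SD (n = 3). The share of Bra012961 is highest in the MeJA libraries of 24 h, at 16.6% to 30.9%, where the summed CPM is lowest.

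Whether the copies responded differently was tested with the log2 ratio of 2 copies within a library, which needs neither library scaling nor gene length. The difference in mean ratio between MeJA and mock leaves was averaged over the 3 times and tested by an exact two-sided permutation test over 8000 regroupings of the treatments within times, with Benjamini-Hochberg adjustment over the 6 pairs of copies. The ratio of Bra012961 to Bra035929 was higher with MeJA by 1.67 on the log2 scale (95% interval 1.08 to 2.24; exact permutation p = 0.0005, adjusted p = 0.001), and that of Bra012961 to Bra029311 by 1.51 (95% interval 0.96 to 2.08; exact permutation p = 0.00075, adjusted p = 0.00113). MYB28 copies thus differed from each other in their response.

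The ratio of Bra005949 to the falling copies moved furthest. Written with Bra005949 below the line, the change was -3.03 for Bra035929 and -2.88 for Bra029311 (exact permutation p = 0.0005, adjusted p = 0.001 each). The 95% intervals were wide, from -4.26 to -1.87 and from -4.13 to -1.70. Without mock 72 h replicate 3, which had 0 counts of Bra005949, the changes were -2.61 and -2.44. With 0.1 added to each count they were -3.33 and -3.18. Between the rising copies, the ratio of Bra012961 to Bra005949 was lower with MeJA, with a log2 difference of -1.37 (95% interval -2.36 to -0.43; exact permutation p = 0.003, adjusted p = 0.0036). By this average the MYB29 copy rose more in proportion, but the size is uncertain. It was -1.01 without mock 72 h replicate 3, -1.66 with 0.1 added to each count and -1.21 with 1 added. At 10 min and at 24 h the MeJA and mock ratios of this pair overlapped (exact permutation p = 0.3 and 0.2). The ratio of Bra035929 to Bra029311 changed by -0.15 (exact permutation p = 0.0565, adjusted p = 0.0565), with a 95% interval from -0.31 to 0.0037.

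At single times the same ratios can be compared by only 3 against 3 libraries, where the smallest possible exact permutation p is 0.1. At 24 h the ratio of Bra012961 to Bra035929 was -0.73 ± 0.68 in MeJA leaves and -3.01 ± 0.14 in mock leaves, and at 72 h it was -1.76 ± 0.36 in MeJA leaves and -3.77 ± 0.32 in mock leaves (log2, SD, n = 3). Both differences reached p = 0.1 in the exact permutation test. At 10 min it was -2.69 ± 0.68 in MeJA leaves and -3.40 ± 0.12 in mock leaves (exact permutation p = 0.2).

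Bra035929 and Bra029311 moved together within conditions as well. After each condition's mean was removed, their log2 CPM had a Pearson r of 0.75 over the 18 libraries. The same measure was -0.43 for Bra012961 and Bra035929, -0.27 for Bra012961 and Bra029311, and 0.34 for Bra012961 and Bra005949. These 18 values share their libraries, their scaling and, for similar copies, possibly reads, and they are given as a description.

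The features most like each copy were sought by the Pearson r of log2 CPM over the 18 libraries, among all features tested. For Bra029311, Bra035929 held place 1 of 26592 features, at 0.97, and for Bra035929, Bra029311 held place 4. By Spearman's rho, which was 0.88 for this pair, the places were 12 and 80. By Pearson's r, ahead of Bra029311 for Bra035929 were Bra024934 (r = 0.97), Bra011824 (r = 0.97) and Bra000589 (r = 0.97). Bra000589 was also first after the copies for Bra029311 (r = 0.96), followed by Bra013648 (r = 0.95) and Bra034095 (r = 0.95). Their log2 fold changes at 24 h were -1.75 for Bra024934, -0.98 for Bra011824, -3.54 for Bra000589, -1.23 for Bra013648 and -2.58 for Bra034095. These features were picked by likeness over the same 18 libraries, so their falls follow largely from that choice and are no separate result.

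For Bra012961 the closest features were Bra010028 (r = 0.88), Bra023312 (r = 0.87) and Bra013950 (r = 0.86), with log2 fold changes at 72 h of 0.31, 0.29 and 0.35. For Bra005949 they were Bra003647 (r = 0.87), Bra031513 (r = 0.87) and Bra026550 (r = 0.86), with log2 fold changes at 24 h of 1.90, 0.66 and 0.70. The rises of these features, too, follow largely from how they were picked. Features with an r over 0.9 numbered 84 for Bra035929, 68 for Bra029311, 0 for Bra012961 and 0 for Bra005949, whereas by Spearman's rho they numbered 48, 5, 2 and 1 for the copies in that order. In likeness to Bra012961, Bra005949 held place 412, at an r of 0.69. None of these identifiers is paired with a name here.

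**Figure D5:**
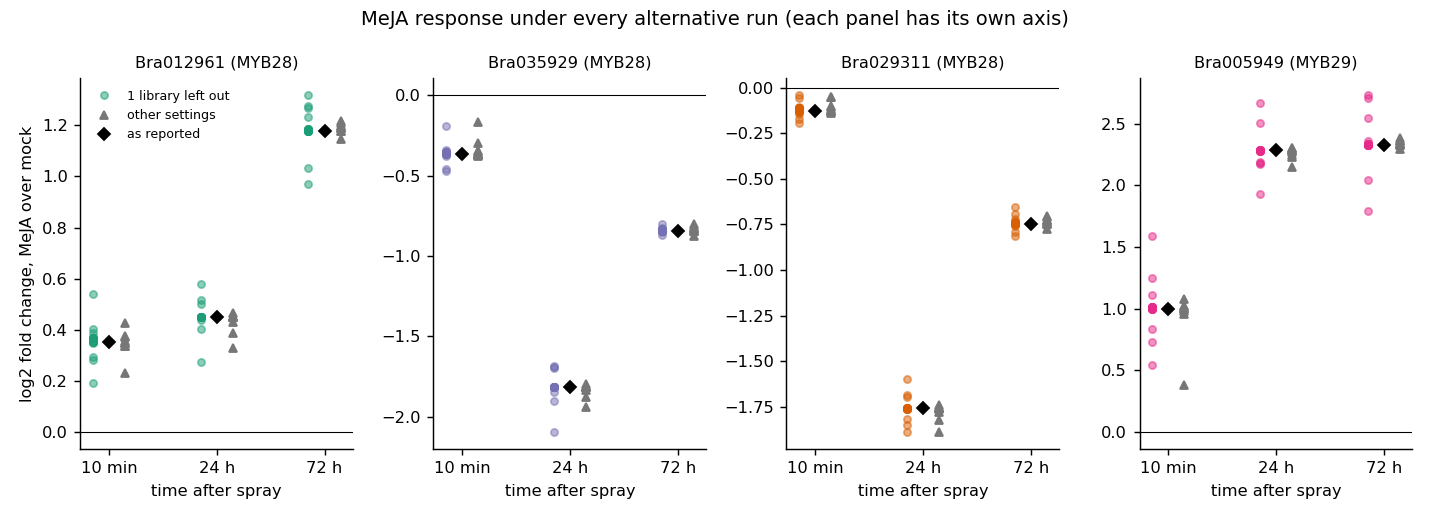
Log2 fold change of MeJA over mock of each copy at each time as reported (black diamonds), with 1 of the 18 libraries left out (coloured circles) and under the other settings tried (grey triangles); each panel has its own axis. No point changes sign, and the spread is widest for Bra005949. With 1 library left out its value runs from 0.54 to 1.59 at 10 min and from 1.80 to 2.73 at 72 h.

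The other genes of the aliphatic glucosinolate pathway, 33 by symbol, and 9 jasmonate response genes were sought in RefSeq's list of genes for the assembly CAAS_Brap_v3.01. Only 1 of the 42186 identifiers was found in that table, and it was none of the 4 copies and none of the listed genes. Pathway genes, leaf markers and genome positions are therefore not reported here.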

How the data were processed

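The authors deposited 1 table of unnormalized whole-number read counts, with a row for each feature and a column for each of 18 stranded, paired-end mRNA libraries, per the file headers and the labels' protocols. Per the submitters' processing notes the tools were edgeR, HTSeq, TopHat2 and FastQC, with no version; neither they nor the labels give what each did, or the assembly, gene models and strandedness used for counting.

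Features were filtered with edgeR's filterByExpr (at least 10 counts in a library of median size, in at least 3 libraries), which left 26593. Libraries were scaled by TMM. 1 quasi-likelihood fit of 6 group means (edgeR 4.0.16, R 4.3.3) gave all contrasts, with Benjamini-Hochberg adjustment over all features tested. Standard errors were taken from the fold change and its F statistic, and CPM had no prior count; log2 CPM, used for likeness, had a prior count of 2. Ratios of copies had 0.5 added to each count and were compared by exact permutation within times (numpy 2.4.6); their intervals hold the shifts this test did not reject. Of 18 value columns, all were used. Intervals and floors on counts cover counting error only.

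The fit and the ratio test were tested on simulated data with known changes. The 4 copies, the symbol lists and the tests were chosen with earlier results of these data known. The text names the 4 copies and, for each, the 3 features most like it. Alternatives were DESeq2 1.42.0's size factors and its Wald test, library totals, upper-quartile factors, no filter, the libraries of 1 time only, a replicate block, leaving out ENSRNA features and leaving out each library. Leaving out replicate 2 of both 10 min groups, and TMM factors from features not called, were added after seeing the data.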

Additional observations from a re-analysis of the deposited data

Results flagged for a closer look

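The MeJA response of Bra035929 and Bra029311, both MYB28 copies, differed between times by the test of that difference. The log2 response at 24 h minus that at 10 min was -1.45 for Bra035929 and -1.63 for Bra029311, and both calls held in 27 of 27 alternatives. For Bra029311 the log2 response at 72 h minus that at 24 h was 1.01, a call that held in 27 of 27 alternatives (adjusted p from 0.000130 to 0.0488 over them). Every time is also a batch in the labels and plants sampled later were older, so time, batch and plant age cannot be told apart. With 3 libraries a group, no test for an outlying sample was made.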

How the results depend on the processing

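Over 58 values tested and 1542 alternatives, direction and side of the threshold were kept in 1501; 18 reversed a direction, 7 lost a call and 16 gained one, all listed here or within the ranges given. No reversal touched a called value. The call of Bra005949 at 72 h was lost on leaving out MeJA replicate 2 or 3 or any mock replicate of that time; its log2 fold change ran from 1.80 to 2.73 over all libraries left out. For Bra012961, 72 h minus 10 min in MeJA leaves ran from 0.48 to 0.84. For Bra005949 in MeJA leaves, 24 h minus 10 min ran from 0.64 to 1.47 (called without MeJA 24 h replicate 1) and 72 h minus 10 min from -0.14 to 0.61. The change in the response of Bra035929 from 24 h to 72 h was called with DESeq2's size factors (0.989), by DESeq2 itself (0.989), with library totals (1.14), with no filter (0.969), without ENSRNA features (0.999), with both replicates 2 of 10 min left out (0.969) and with TMM on features not called (0.986); with 1 library left out it ran from 0.84 to 1.26. The change for Bra012961 from 10 min to 24 h was -0.10 with library totals and ran from -0.0895 to 0.26, and that for Bra005949 from 24 h to 72 h ran from -0.49 to 0.45. In mock leaves, 24 h minus 10 min of Bra029311 was 0.040 with library totals and 0.0018 with upper-quartile scaling and ran from -0.20 to 0.054; its 72 h minus 24 h was -0.0097 with library totals, and its 72 h minus 10 min ran from -0.027 to 0.11. Likewise 24 h minus 10 min of Bra005949 ran from -0.55 to 0.30, and 72 h minus 10 min of Bra012961 from -0.23 to 0.018. The ratio of Bra035929 to Bra029311 ran from -0.19 to -0.11 and was called without any of 5 single libraries. The causes were not tested.

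The features called numbered 1895 at 10 min (358 to 2769 with 1 library left out, 48 with both replicates 2 of 10 min left out), 7588 at 24 h (5026 to 7859, and 4818 with the libraries of 24 h alone) and 2589 at 72 h (1023 to 3418). For 24 h minus 10 min, 72 h minus 24 h and 72 h minus 10 min of the response they numbered 767, 485 and 80, against 1331, 907 and 371 by DESeq2, and ran from 316 to 1573, from 132 to 1015 and from 17 to 272 with 1 library left out. Over time in mock leaves, leaving out 1 library gave 530 to 2488, 267 to 1689 and 2922 to 6086 in place of 1661, 970 and 5247 (24 h minus 10 min, 72 h minus 24 h, 72 h minus 10 min); for the second of these library totals gave 1720 and DESeq2 1590, and leaving out both replicates 2 of 10 min gave 815 for the first. For the response, library totals gave 1576 and 752 for the first and second change between times, and the share of rises among calls was then 85.7%, 33.7% and 74.1% at the early, middle and late time, in place of 65.9%, 54.0% and 62.8%.

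Replicate numbers did not pair the libraries: same-numbered MeJA and mock libraries had deviations correlated from -0.21 to 0.29, over 0.1 in 2 of 9 pairs, and 4 of 9 MeJA libraries correlated best with their own number. With the replicate block, 1475, 7279 and 2317 features were called at the 3 times in order, 33 in place of 80 for 72 h minus 10 min of the response, and no call of the 4 copies changed (Bra005949 at 72 h, 2.36, adjusted p = 0.0416). By Spearman's rho the 3 features most like Bra012961 shared 1 with those by Pearson's r, and those of the other copies shared 0. Few reads of Bra005949, 0 to 55 per library, limit what its tests can show.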
